A study of Mus musculus with 2 samples.

Results

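The 3 genes described here, *Dlk1*, *Rtl1* and *Dio3*, are the protein-coding genes inside the imprinted *Dlk1-Dio3* domain on distal mouse chromosome 12, chosen by name and measured between their annotated limits. They are 3 of 940 protein-coding genes that could be measured in the deposited RNA signal. The signal comes from 1 JXO library and 1 OXJ library, so no value below has a replicate. JXO is mouse embryo fibroblasts (MEFs) of a JF1 mother and an OG2 father, and OXJ is MEFs of the reciprocal cross with an OG2 mother and a JF1 father. JF1 is an inbred *Mus musculus molossinus* strain, OG2 is a line made on CBA/CaJ and C57BL/6J background and bred to homozygosity for the GOF18ΔPE-EGFP transgene, so that both crosses inherit the transgene from the OG2 parent. Each MEF line was grown from 1 female embryo of 13.5 dpc without head and internal organs and used at passage 2 or 3. A difference between JXO and OXJ cannot be told apart from a difference between these embryos or cultures, and in bulk RNA fewer expressing cells cannot be told apart from less RNA per cell.

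In this domain *Dlk1*, *Rtl1* and *Dio3* are known to be expressed mainly from the paternal chromosome, while *Meg3*, *Rtl1as*, *Rian* and *Mirg*, non-coding RNAs of the (+) strand, come from the maternal one. *Dlk1*, also called Pref-1, encodes a transmembrane protein with EGF-like repeats that is related to Notch ligands and holds back adipocyte differentiation. *Rtl1* is a gene derived from a Ty3/gypsy type retrotransposon and is needed in the placenta, and *Dio3* encodes the deiodinase that inactivates thyroid hormones. The signal does not tell JF1 from OG2 alleles, so the parental origin of the RNA was not analysed here.

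Levels are mean read depth per base scaled to 50000000 aligned reads. A single read adds 0.652 to a base in JXO and 0.579 in OXJ. Intervals are 95% counting intervals, exact Poisson for levels and Clopper-Pearson for shares and ratios, with 200 read bases counted as 1 read pair. They cover counting error only. The tracks hold 7.61% of the aligned reads of JXO and 6.70% of those of OXJ, in stretches that cover part of the genome. Of 642 other coding genes without an exon on the opposite strand, 91.3% in JXO and 90.7% in OXJ had more signal on their annotated strand. The cell type label could be checked with 1 of 10 fibroblast markers, since only *Col1a2* lay inside the stretches, with levels of 583 in JXO and 388 in OXJ. The neural progenitor genes *Nes*, at 340 in JXO and 155 in OXJ, and *Sox2*, at 1.27 and 1.22, and the cartilage collagen gene *Col2a1*, at 423 and 361, were also covered, and their part in the results below was not tested. No marker of skeletal muscle, endothelium, blood, epithelium or adipocytes lay inside the stretches.

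The 3 genes gave 3 different pictures. *Dlk1* was a spliced (+) strand transcript whose exons reached 5.17 in JXO (4.52 to 5.89) and 11.6 in OXJ (10.6 to 12.5) on the sense strand. *Dio3* had a lower (+) strand level of 2.22 in JXO (1.54 to 3.09) and 2.48 in OXJ (1.80 to 3.34). *Rtl1* had almost all of its signal on the opposite strand, with 0.325 in JXO (0.185 to 0.529) and 0.223 in OXJ (0.116 to 0.388) on its own (−) strand. The order of the 3 levels was the same in both libraries, and no pair of neighbors in that order had overlapping intervals within a library. Among 619 other coding genes with at least 10 read pairs in either library, 27.3% had a lower level than *Dlk1* in JXO and 48.3% in OXJ. For *Dio3* these shares were 16.0% and 19.7%, and for *Rtl1* 1.94% and 0.808%. The *Dlk1* level used here is a mean over 5657 annotated exon bases, of which 48.9% were covered in JXO and 65.2% in OXJ. Over its coding sequence alone the level was 20.4 in JXO and 44.5 in OXJ, which was not ranked. The coding genes nearest in level over both libraries, out of 730, were *Socs1*, *Csad* and *Arhgap23* for *Dlk1*, at log2 distances of 0.58 to 0.83. For *Dio3* they were *Sp2*, *Rem1* and *Pla2g4b*, at 0.16 to 0.25, and for *Rtl1* they were *Adcyap1*, *Ankrd55* and *Amn*, at 0.06 to 0.23.

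*Dlk1* lies at chr12:110691033-110701546 of mm9 on the (+) strand, and its last 90 bases are past the last base with signal in either library. Over the whole gene it had 251 read pairs on (+) in JXO and 588 in OXJ. The signal drew the exons of the transcript Dlk1-002. Its 5 exons had levels of 6.53, 13.03, 18.7, 20.9 and 17.9 in JXO, against 9.94, 23.8, 32.5, 39.3 and 43.7 in OXJ. Every base of its coding sequence was covered in both libraries, at a level of 20.4 in JXO (17.5 to 23.6) and 44.5 in OXJ (40.4 to 48.8). The introns of the gene, taken as bases outside every annotated exon, had 0.716 in JXO (0.470 to 1.04) and 0.559 in OXJ (0.356 to 0.836). The coding sequence was thus 28.5-fold above the introns in JXO and 79.5-fold in OXJ.

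**Figure D1:**
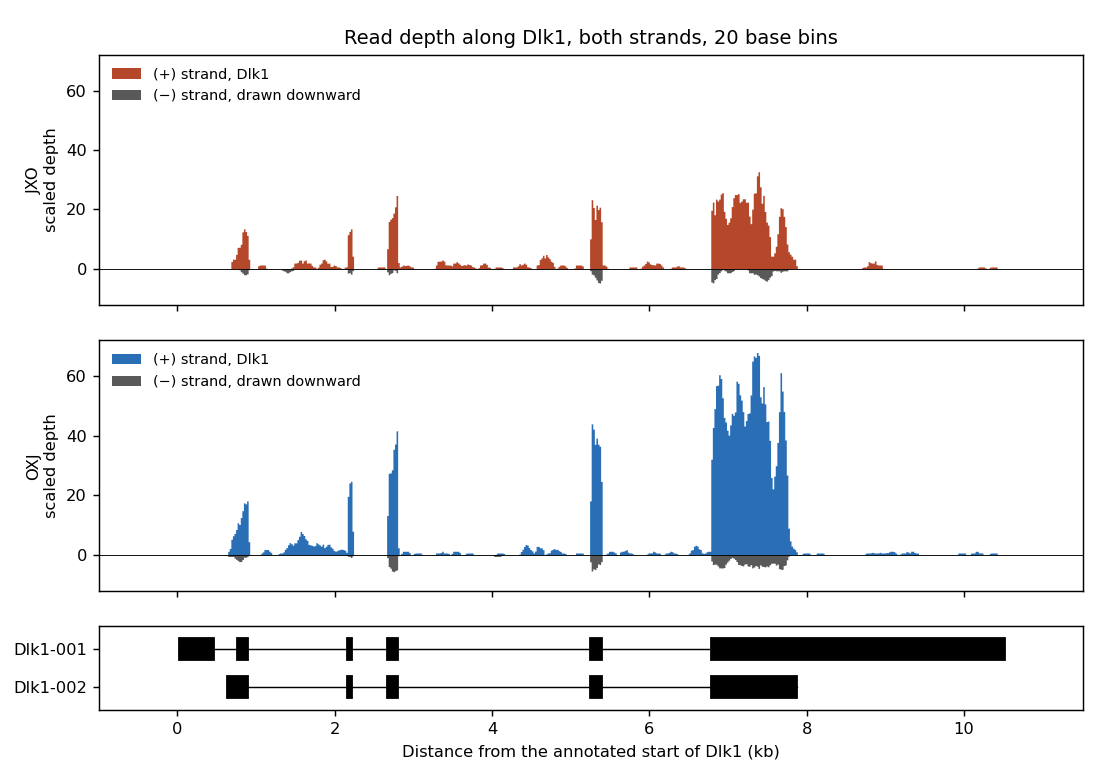
Scaled read depth in bins of 20 bases along *Dlk1* in JXO (top) and OXJ (middle), with the (+) strand drawn upward and the (−) strand downward, against the distance from the annotated start in kb. The boxes below are the exons of 2 annotated transcripts. The signal follows the 5 exons of Dlk1-002 and is absent from the upstream first exon of Dlk1-001.

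The splice sites are shown here because the depth changed from 1 base to the next at these points. Each is given with 10 bases on either side of the exon edge, with the first 2 or last 2 bases of the intron in capitals, from mm9 chromosome 12.
exon 1 donor: agcacctatgGTgagccccc
exon 2 acceptor: tcttcctcAGgggctgaatg
exon 2 donor: atgtctgcagGTaatggagg
exon 3 acceptor: gtccacacAGgtgccatgtt
exon 3 donor: tgcgaaatagGTgggcactg
exon 4 acceptor: catttcccAGacgttcgggc
exon 4 donor: tgatcaatggGTaaatattc
exon 5 acceptor: tgtgttacAGttctccctgc

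At the exon 1 donor, 18 reads in JXO covered the last exon base and 2 the next base, and in OXJ these were 33 and 3 reads. At the exon 2 donor the pairs of values were 21 and 1 reads in JXO and 44 and 0 in OXJ. At the exon 3 donor they were 38 and 4 reads in JXO and 71 and 5 in OXJ, and at the exon 4 donor 36 and 2 in JXO and 60 and 0 in OXJ. Between 0 and 11.1% of the depth was left on the intron side of a donor, and between 0 and 10.0% on the intron side of an acceptor. All 4 junctions were therefore sharp in both libraries.

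The (−) strand over *Dlk1* showed the same edges at a lower depth. The antisense level was 0.433 in JXO and 0.869 in OXJ over the exons, but 0.00590 and 0.0130 over the introns, so that 98.8% of the (−) strand signal in JXO and 98.7% in OXJ lay in exons of the (+) strand gene. At the exon 3 donor in OXJ, 10 antisense reads covered the last exon base and 1 the next base, and 9 antisense reads began again at the first base of exon 4. At the exon 4 donor in JXO these were 9 and 0 reads, and 9 at the start of exon 5. The antisense share over the exons was 7.72% in JXO and 6.99% in OXJ. The median of 491 other coding genes without an opposite exon was 2.83% in JXO and 3.67% in OXJ, and 8.35% and 12.6% of them had an antisense share as high as that of *Dlk1*. No exon is annotated on the (−) strand over the exons of *Dlk1*, and the source of these reads was not tested.

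**Figure D2:**
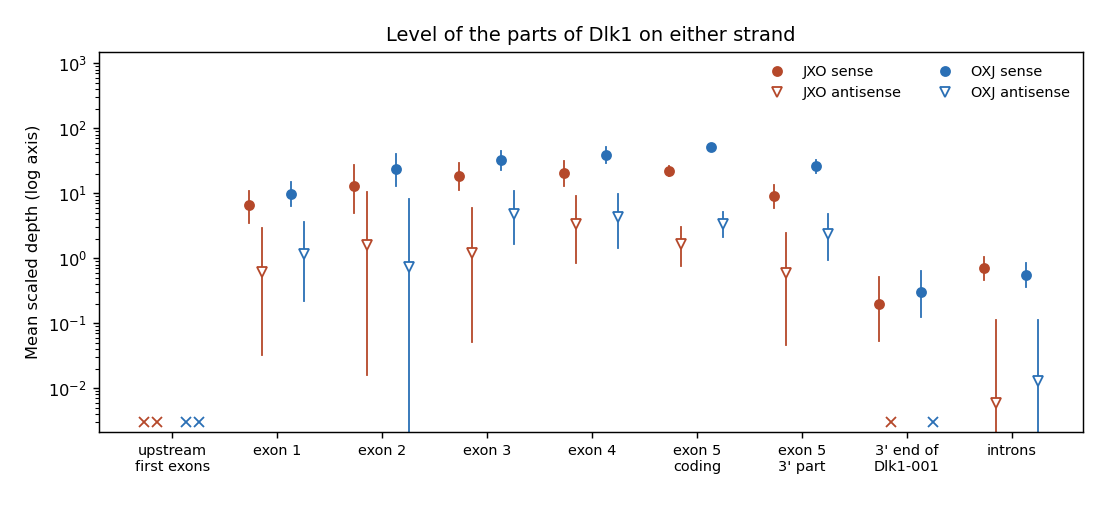
Mean scaled depth (log axis) of the parts of *Dlk1* in JXO (left of each pair) and OXJ (right), for the sense (+) strand as filled circles and the antisense (−) strand as open triangles. Bars are 95% Poisson intervals and crosses mark parts without a read. Sense levels of OXJ lie above those of JXO in each of the 5 exons of Dlk1-002, while the introns had 0.716 in JXO and 0.559 in OXJ. As deposited, the log2 ratios of JXO over OXJ of exon 1 (-1.69 to 0.42), exon 2 (-2.50 to 0.59) and exon 3 (-1.69 to 0.04) were within counting error. Relative to the median coding gene, only that of exon 2 was (-2.99 to 0.10).

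The annotated limits of *Dlk1* were wider than its signal at both ends. The upstream first exons of Dlk1-001 and Dlk1-007, which together span chr12:110691033-110691504, had 0 read pairs in either library. The upper limit of the interval there was a level of 1.02 in JXO and 0.905 in OXJ. The first (+) strand read began 684 bases after the annotated start in JXO and 639 bases after it in OXJ, inside exon 1 of Dlk1-002, which begins at 110691665. An alternative first exon of Dlk1-006, which joins exon 2 without an intron, was covered at a lower level than the 5 exons, with 1.36 in JXO (0.593 to 2.65) and 3.34 in OXJ (2.11 to 5.02).

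At the other end, between the coding sequence and a last peak, depth was lowest at 5 reads at 110698585 in JXO and 34 reads at 110698609 in OXJ. It was then higher again, up to 33 reads at 110698714 in JXO and 111 reads at 110698698 in OXJ. After the last sense codon, 331 bases in JXO and 238 bases in OXJ came before the first base past the peak with under 0.1 of its depth. The remaining 3′ part of Dlk1-001, which is 2636 bases long, had only 0.198 in JXO (0.0539 to 0.506) and 0.308 in OXJ (0.124 to 0.634). The polyadenylation hexamer AATAAA occurs 2 times in the 2979 bases after the coding sequence on the (+) strand, 2024 and 2958 bases past its end, both in this part with little signal. No (+) strand read lay in the 5 kb downstream of *Dlk1* in either library. These bases lie past the end of the stretch that holds *Dlk1*, so whether reads there were left out of the tracks cannot be told.

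In mouse, forms of the *Dlk1* protein differ by in-frame deletions close to the membrane. The transcript Dlk1-008 leaves out 219 bases of exon 5, which are 73 codons with a remainder of 0. These are its inner splice sites, shown in the same way.
inner donor: gcacacccagGTgagcttcg
inner acceptor: cctcaccgAGggacaggcca

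Depth did not drop as at the other junctions. At the inner donor, 40 and 35 reads covered the last kept and the first skipped base in JXO, and 88 and 73 in OXJ. In OXJ this was the largest downward step among 750 steps in the coding part of exon 5, while in JXO 6 steps, with this one counted, were as large. At the inner acceptor, 23 reads in JXO covered both the last skipped and the first kept base, and 89 and 93 reads in OXJ. The level of the skipped part was 1.05 times that of the coding bases on either side in JXO (0.701 to 1.56) and 0.951 times in OXJ (0.741 to 1.21), so a transcript without it was not detectable from the level at this depth. Dlk1-003 and Dlk1-010 use another inner donor, and the splice sites of these other annotated forms were not examined.

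The reciprocal crosses differed in *Dlk1*. The log2 ratio of JXO over OXJ was -1.16 over the exons (-1.39 to -0.93), -1.12 over the coding sequence and -1.52 (-2.25 to -0.85) over the 3′ untranslated part of Dlk1-002. The median ratio of the 622 coding genes with at least 10 read pairs in either library was 0.49, and relative to this median *Dlk1* was at -1.65 (-1.88 to -1.43). With values as deposited, 62 of the 622 genes (9.97%) were past a 2-fold difference in either direction, 52 of them (8.36%) higher in JXO and 10 (1.61%) lower in JXO. With the median gene set equal these counts were 36, 11 and 25. *Dlk1* was among those lower in JXO on either scale, but as a difference of mean log2 values it was at -0.51, which is not past 2-fold. The exons of *Dlk1* had 224 read pairs in JXO and 565 in OXJ. With values as deposited, the other 9 genes at least 2-fold lower in JXO had at most 102 read pairs in OXJ, for the germ cell RNA helicase gene *Ddx4*. The 25 genes lower with the median gene set equal were not compared in this way.

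Over all introns of *Dlk1* together no such difference was seen beyond counting error. Their read pairs were 26.7 in JXO and 23.5 in OXJ, and their log2 ratio was 0.36 (-0.50 to 1.22) as deposited and -0.14 (-0.99 to 0.73) relative to the median gene, so its sign depended on the scaling. Most of this signal was in the intron between exons 3 and 4, with a level of 1.04 in JXO (0.629 to 1.61) and 0.617 in OXJ (0.329 to 1.05). The first and the last intron were lower in JXO, with log2 ratios of -0.90 (-6.76 to 3.28) and -0.38 (-2.22 to 1.34), both within counting error. The ratio of intron over exon level, which does not depend on the scaling, came to 0.138 for JXO (0.0890 to 0.207) and 0.0484 for OXJ (0.0306 to 0.0731). These intervals do not overlap. The difference of 1.52 on the log2 scale was set beside 426 other coding genes with at least 10 exon and 10 intron read pairs in both libraries. Their median difference was -0.12, with quartiles of -0.37 and 0.11, and 1 gene (0.235%), *Trappc9*, had as large a difference. *Trappc9* was named after its value was seen. The 790 exon bases particular to Dlk1-006, which lie in the first intron of Dlk1-002, counted as exon here. They held 8.2 sense read pairs in JXO and 22.8 in OXJ. With these bases as intron the difference would be smaller, and it was not computed in that way.

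**Figure D3:**
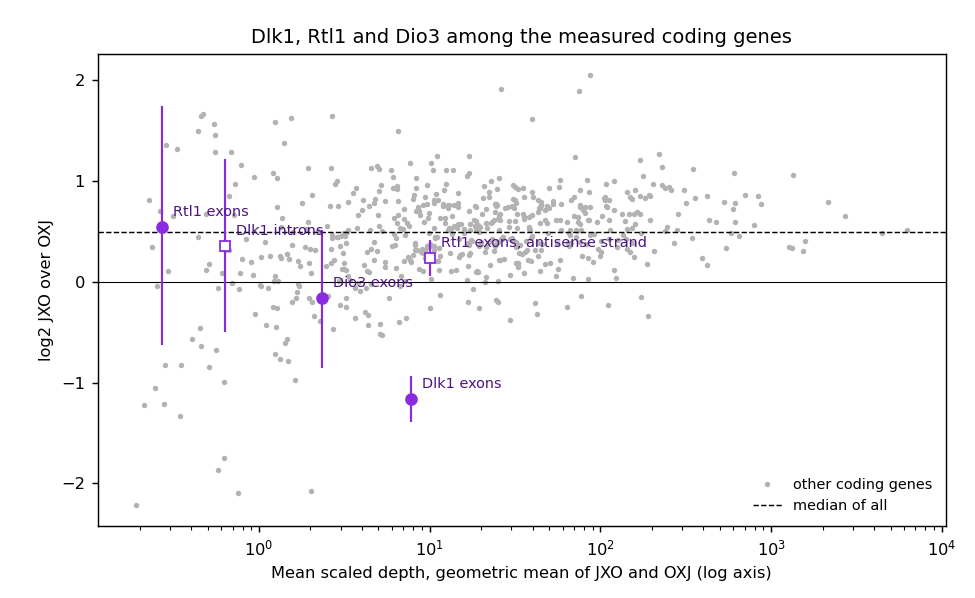
Log2 ratio of JXO over OXJ against the mean scaled depth (log axis) of 622 coding genes with at least 10 read pairs in either library (gray points). The exons of *Dlk1*, *Rtl1* and *Dio3* are filled circles, the introns of *Dlk1* and the antisense strand of *Rtl1* open squares, and bars are 95% counting intervals. The dashed line is the median of 0.49, and *Dlk1* exons, at -1.16, lie below the bulk of genes of like level.

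*Rtl1* lies at chr12:110827404-110838540 on the (−) strand, with a short first exon and a second exon that holds the whole coding sequence. On its own strand it had 15.9 read pairs over its exons in JXO and 12.3 in OXJ, which covered 21.0% and 23.0% of the exon bases. On the (+) strand the same bases had 531 read pairs in JXO and 508 in OXJ, with levels of 10.9 (9.98 to 11.9) and 9.25 (8.47 to 10.1) and 97.1% and 98.7% of the bases covered. Only 2.90% of the exon signal in JXO (1.66 to 4.67%) and 2.36% of that in OXJ (1.23 to 4.06%) was sense. Of the 491 other coding genes without an opposite exon, 1 in each library had as high an antisense share (0.204%), *Gm14492* in JXO and *Mog* in OXJ. *Rtl1* itself has exon bases overlapped by annotation on the opposite strand, and genes like it were left out of these 491. The 0.204% is therefore no measure of how rare such a share is among genes with a known antisense RNA.

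The little (−) strand signal was not confined to the exons of *Rtl1*. For JXO, the (−) level of the intron, 0.113, lay below the 0.325 of the exons. The 2 intervals overlap, with an upper limit of 0.285 for the intron and a lower limit of 0.185 for the exons. The (−) share of the JXO intron was 1.07%, against 2.90% over the exons. For OXJ, intron and exons were closer, with levels of 0.192 against 0.223 and shares of 2.56% against 2.36%. Between *Meg3* and *Mirg*, 30 windows of 6295 bases, the length of the second exon, did not touch *Rtl1*. Their (−) strand level had a median of 0.161 in JXO (range 0 to 1.54) and 0.235 in OXJ (0.0276 to 1.71), and 9 windows in JXO and 16 in OXJ reached the level over the *Rtl1* exons. Their (−) strand share had a median of 1.52% in JXO and 2.37% in OXJ, and 8 and 15 of the 30 windows reached the share of *Rtl1*. The first exon of *Rtl1* had no (−) strand read in either library, but at 62 bases 3 read pairs would be a level of 6.31 in JXO and 5.60 in OXJ. *Rtl1* RNA was therefore not detectable above the (−) strand signal of the surrounding domain at this depth.

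The (+) strand signal covered the intron of *Rtl1* as well as its exons. On (+) the intron of *Rtl1* had 10.5 in JXO (9.45 to 11.6) and 7.32 in OXJ (6.51 to 8.19). The intervals of intron and exons overlap in JXO, while in OXJ the intron was lower and they do not. The exon level includes the highest bin given below and was not measured without it. The difference in OXJ therefore need not hold along the exons. In 23 bins of 500 bases along the gene the (+) level ran from 3.41 to 40.5 in JXO, with a median of 10.1, and from 3.22 to 30.9 in OXJ, with a median of 7.64. The highest bin was the same in both libraries, chr12:110832904-110833403, near the start of the *Rtl1* coding sequence. The log2 ratio of JXO over OXJ on this strand was 0.24 (0.06 to 0.41) over the exons as deposited and -0.26 (-0.44 to -0.08) relative to the median coding gene, so over the exons its direction depended on the scaling. Over the intron it was 0.52 (0.30 to 0.74) as deposited and 0.02 (-0.20 to 0.25) relative to the median gene. In the 5 kb upstream of *Rtl1* it was 0.87 (0.644 to 1.1001) and 0.38 (0.15 to 0.61), with the sign kept. Depth there was uneven. The deepest base had 456 reads in JXO and 257 in OXJ, against mean depths of 16.8 and 10.3 reads. The ratio over these 5 kb is thus weighted toward the deepest bases and need not hold along them.

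**Figure D4:**
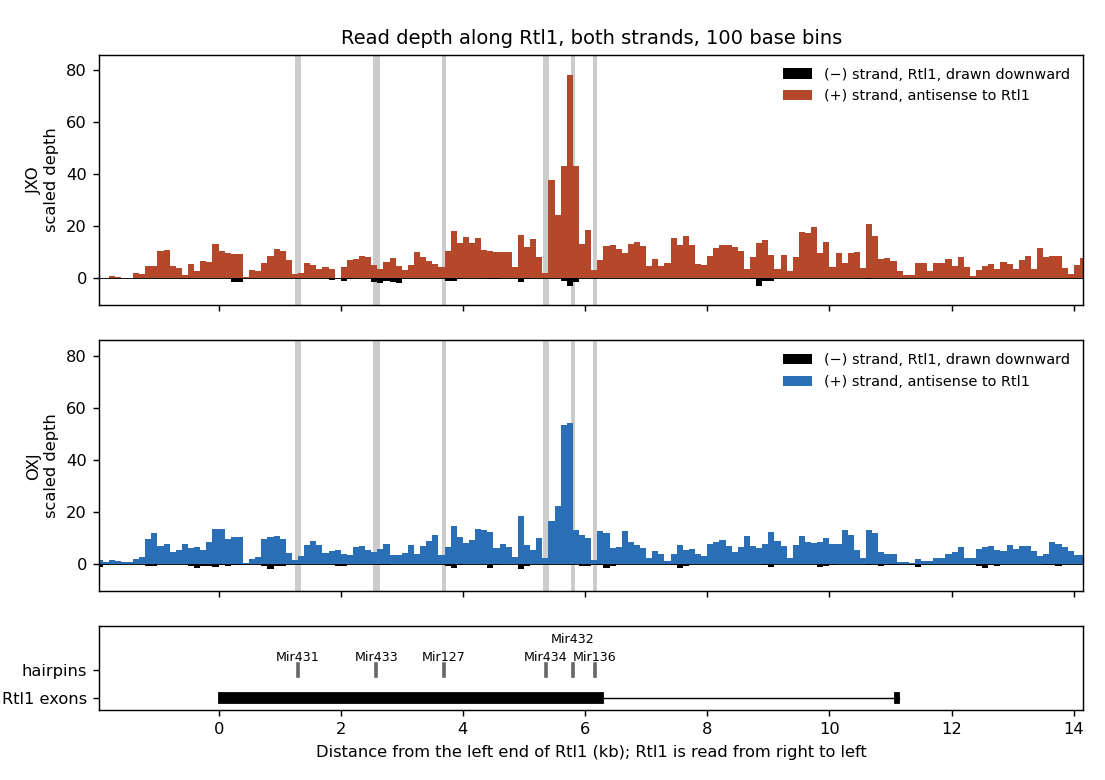
Scaled read depth in bins of 100 bases along *Rtl1* in JXO (top) and OXJ (middle), with the (+) strand, antisense to *Rtl1*, upward and the (−) strand of *Rtl1* downward, against the distance from the left end of the gene in kb. Gray bands and ticks mark 6 microRNA hairpins of the (+) strand. Depth is low in the bands of *Mir431*, *Mir127*, *Mir434* and *Mir136* and highest within the gene around *Mir432*, with 74.5 in JXO and 25.6 in OXJ over that hairpin.

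The (+) strand transcript opposite *Rtl1* is known to hold microRNAs that are fully complementary to *Rtl1* mRNA and direct its cleavage. In mm9, 6 hairpins and 11 mature microRNAs of RefSeq (sequences of GRCm38.p6) matched inside *Rtl1* with every base, all of them inside its coding sequence. One mature microRNA of each hairpin is shown with its seed, bases 2 to 8, in capitals.
miR-431-5p: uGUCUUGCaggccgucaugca
miR-433-3p: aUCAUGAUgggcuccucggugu
miR-127-3p: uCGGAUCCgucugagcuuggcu
miR-434-3p: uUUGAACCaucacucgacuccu
miR-432: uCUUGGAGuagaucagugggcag
miR-136-5p: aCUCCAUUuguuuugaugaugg

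No seed was shared, with 11 seeds among the 11 microRNAs. On the (−) strand, the *Rtl1* sites opposite miR-127-3p and miR-136-5p begin at bases 2495 and 52 of the coding sequence, counted from 1 at the start codon. They are shown with the match to the seed in capitals.
site of miR-127-3p: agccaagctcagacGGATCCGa
site of miR-136-5p: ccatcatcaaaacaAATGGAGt

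*Mir434* had (+) levels of 2.03 (JXO, 0.139 to 8.82) and 1.79 (OXJ, 0.120 to 7.80), against 21.5 and 14.3 in the 200 bases on either side. *Mir136* had 1.24 (JXO, 0.00334 to 10.2) and 0.803 (OXJ, 0.000265 to 8.48), against 12.4 and 10.8 beside it. *Mir127* had 3.12 in JXO (0.279 to 12.5) and 1.001 in OXJ (0.00309 to 8.05), against 10.5 and 10.4. *Mir431* had 1.65 (0.0629 to 8.35) and 1.91 (0.139 to 8.17), against 5.84 and 5.78. The flank levels of *Mir431* in both libraries and of *Mir127* in JXO lay inside the hairpin's interval, so these gaps were within counting error. By the levels alone these 4 of the 6 hairpins were under 0.5 of their flanks in both libraries. Of 1004 windows of 83 bases inside *Rtl1* that touch no hairpin, 5.48% were. The windows overlap each other, and the hairpins are 62 to 124 bases long. Elsewhere between *Meg3* and *Mirg*, 13 of 46 hairpins with signal beside them were under 0.5 of their flanks in both libraries, with medians of 0.625 in JXO and 0.604 in OXJ.

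The other hairpins of *Rtl1* were not under 0.5 of their flanks. *Mir433* had 4.08 in JXO and 5.04 in OXJ, which was 0.573 and 0.810 of its flanks. *Mir432* lay within the highest (+) strand peak inside *Rtl1*, with a level of 74.5 in JXO (53.9 to 100.4) and 25.6 in OXJ (14.8 to 41.2), or 2.17 and 0.801 times its flanks. The intervals of *Mir432* in JXO and OXJ do not overlap, while its flanks had 34.4 in JXO and 31.9 in OXJ. Mature microRNAs are shorter than the reads of 100 bases and were not measured here.

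*Dio3* lies at chr12:111517278-111519307 on the (+) strand and has 1 exon and no intron. It had 34.5 read pairs on (+) in JXO and 43.5 in OXJ, which covered 85.5% and 83.8% of its bases. The coding sequence was covered over 100% of its bases in JXO and 98.2% in OXJ, with levels of 2.84 (1.73 to 4.39) and 2.88 (1.82 to 4.33). The 3′ untranslated part had 1.89 in JXO (1.03 to 3.18) and 2.53 in OXJ (1.56 to 3.87), and held the only inner gap of either library, of 188 bases in JXO and 135 bases in OXJ. The deepest base had 11 reads in JXO and 13 in OXJ.

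The signal of *Dio3* had clear borders. In the 5 kb upstream no (+) strand read was found in either library, with an upper limit of the interval of 0.0962 in JXO and 0.0854 in OXJ. In the 5 kb downstream there was none in JXO and 1 read in OXJ. The first covered base lay 70 bases after the annotated start in JXO and 180 bases after it in OXJ, and the last covered base 36 and 14 bases before the annotated end. All 34.5 read pairs over the gene in JXO were on its own strand, and 97.8% of those in OXJ (88.1 to 99.9%), with 1 antisense read pair.

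Like other deiodinases, *Dio3* encodes a selenoprotein, in which an in-frame TGA codon is read as selenocysteine at the active site. The annotated coding sequence of 304 codons has 1 such codon, number 170, and it is shown in capitals within 27 bases of mm9.
chr12:111517937-111517963: ggcagctgtaccTGAccaccgttcatg

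In JXO 4 reads covered this codon and in OXJ 3 reads. The coding level before it was 2.31 in JXO and 2.57 in OXJ, and from the codon onward 3.50 and 3.27, so depth was not lower past the TGA. The log2 ratio of JXO over OXJ was -0.16 for *Dio3* (-0.85 to 0.51) as deposited and -0.66 (-1.34 to 0.02) relative to the median coding gene. Both intervals hold 0, and *Dio3* was not past 2-fold.

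**Figure D5:**
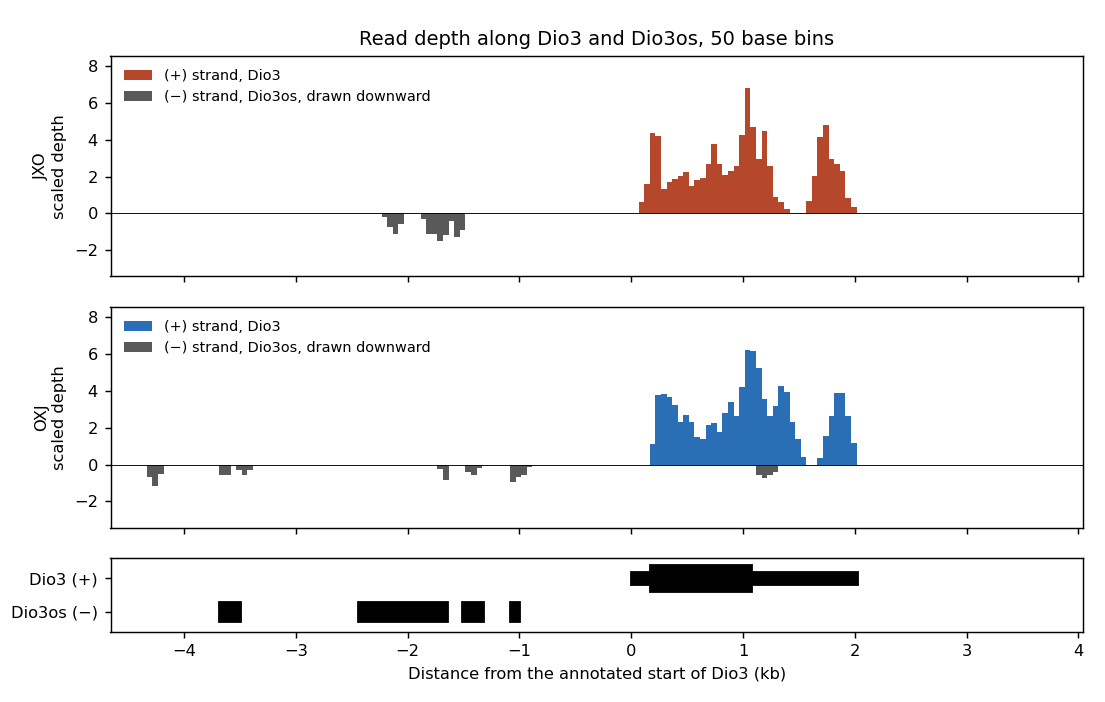
Scaled read depth in bins of 50 bases along *Dio3* and *Dio3os* in JXO (top) and OXJ (middle), with the (+) strand upward and the (−) strand downward, against the distance from the annotated start of *Dio3* in kb. Boxes are exons, with the coding sequence of *Dio3* taller. *Dio3* had 2.22 in JXO and 2.48 in OXJ on (+), and *Dio3os* 0.322 and 0.201 on (−).

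*Dio3os*, the non-coding RNA transcribed away from *Dio3* on the (−) strand, was at the limit of detection. Its exons had 3.16 read pairs in JXO and 2.22 in OXJ, that is, levels of 0.322 (0.0701 to 0.917) and 0.201 (0.0284 to 0.684), and no (+) strand read.

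Among the other genes of the domain and its borders, 6 of 9 lay inside the stretches and 5 had at least 10 read pairs. None of these 5 was past 2-fold, and their median log2 ratio was 0.25. The 4 highest were *Rian*, with an exon level of 233 in JXO and 179 in OXJ, *Mirg* with 31.9 and 26.8, *Meg3* with 17.3 and 18.3 and the coding gene *Wdr25*, upstream of *Dlk1*, with 5.08 and 4.04. *Rtl1* and *Dio3* were thus below all 4 in both libraries. Over all annotated exons *Dlk1* was above *Wdr25* in OXJ and at a like level in JXO. *Begain*, also upstream of *Dlk1*, had 1.67 in JXO and 1.70 in OXJ.

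The pathways in which the 3 genes act could be followed only in small part. None of 16 genes of the Notch pathway lay inside the stretches. Of 9 adipogenesis genes 2 did, the transcription factor gene *Sox9*, which acts downstream of *Dlk1* in preadipocytes, with 2.96 in JXO and 3.53 in OXJ, and the glycerol phosphate dehydrogenase gene *Gpd1* with 0.195 and 0.293. Among the thyroid hormone genes, *Thrsp* lay inside the stretches and had no read in either library. Of 11 genes of the retrotransposon Gag-like family, to which *Rtl1* belongs, 1 did, *Peg10*, with 58.4 in JXO and 69.7 in OXJ. *Sox9* and *Peg10*, with log2 ratios of JXO over OXJ of -0.25 each, were not past 2-fold.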

How the data were processed

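Ribosomal RNA was removed from total RNA and libraries were made strand specific with dUTP and sequenced from both ends. The submitters' processing notes name CASAVA 1.9 and TopHat 1.2.0 with mm9, and a read could have as many as 10 loci. Depth at each base was scaled by the authors to a library of 50000000 reads, and 1 was added before log2. The deposited log2 values fill 4 tracks, 1 for each strand of each library. Tracks named forward held (−) strand RNA. The log2 values were turned back into whole reads, with a largest relative deviation of 3.61e-14. Stretches were formed by bridging gaps of at most 50 kb, and genes of GENCODE M1 wholly inside such stretches, and *Dlk1*, were measured. The tracks hold 5837225 reads in JXO and 5785447 in OXJ. With 1 library per cross no test was run between crosses and no p-value is given. Ratios use no pseudocount. The ratio was tested on simulated data. Alternatives changed the exons used, the strand measure, the minimum of 10 read pairs, the scaling and the pseudocount. The named genes are the 3 genes, the 4 highest of each list and the 3 nearest in level. A gene of the lists is not reported here. Genes and lists were chosen with earlier results of these data known. Python 3.11.15, numpy 2.4.6, scipy 1.17.1 and samtools 1.23.1 were used.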

Additional observations from a re-analysis of the deposited data

How the results depend on the processing

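The level of *Dlk1* depended on the bases used, with 20.4 in JXO and 44.5 in OXJ over the coding sequence and 3.11 and 6.48 over the whole gene, while those of *Rtl1* and *Dio3* stayed within their counting intervals. As a share of covered bases in place of read bases, *Dlk1* had 67.9% in JXO and 69.9% in OXJ on its own strand, against 92.3% and 93.01% of read bases, and *Rtl1* 17.8% and 18.9%. When a base had to hold 2 reads, coverage was 39.9% and 47.3% for *Dlk1*, 15.2% and 9.20% for *Rtl1* and 69.9% and 78.2% for *Dio3*. The log2 ratio of *Dlk1* was -1.68 with the summed exon signal set equal, -1.65 with the median coding gene set equal and -0.51 as a difference of mean log2 values. The number of coding genes past 2-fold was 159 without a minimum of read pairs, 38 with a minimum of 50, 35 with the summed signal set equal and 36 with the median gene set equal. Of 48 alternatives tried, 27 stayed within the counting interval of the reported value, or within 1.5 times the count, and 21 did not. The direction of a difference past 2-fold was turned by 0 of them. Only *Dlk1* had a reported ratio past 2-fold, so only the alternatives to its ratio could have done so. No paired analysis was possible because there is 1 library per cross, and for the same reason no replicate could be left out. Depth limits, among others, *Rtl1* on its own strand, *Dio3os* and the introns of *Dlk1*, each with fewer than 30 read pairs in either library.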
